A study of Eleocharis dulcis with 24 samples.

Results

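The comparison set cultivated corms of Eleocharis dulcis against wild corms at late swelling, gene by gene, in 3 cultivated and 3 wild libraries. It covered the genes that reached at least 1 TPM (transcript abundance corrected for length and scaled to the same total in each library) in at least 3 of these 6 libraries, which were 23618 of the 35975 genes in the deposited table. The samples are described only as corm tissue from cultivated or wild plants at the late swelling stage, and no accession, growing site, age in days or batch is named. The other 18 libraries of the series, 3 per origin at initial swelling, middle swelling and maturity, were used to set each late difference beside that at the other stages. The labels call the 3 libraries of a group biological replicates and do not say whether each came from a separate plant or a pool, and p-values measure the spread between these libraries only.

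Eleocharis dulcis, the Chinese water chestnut, is a sedge of wet ground. Its corm is the swollen tip of an underground stem, in which sugar imported from the shoot is laid down mainly as starch while cell division gives way to cell enlargement and filling. In storage organs of this kind late swelling is the phase of filling, before growth stops and the organ becomes dormant. The deposited table identifies genes by ID alone, so genes appear below by ID and none is given a function. An ID such as EdulChr47G00173520 holds a chromosome label (here 47) and a serial number that mostly runs in steps of 10, and 1802 of the 23618 genes have an ID in the style of novel1867 instead. Each library summed to between 999997 and 1000002 TPM, so sequencing depth is unknown and no counting interval can be given.

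The origins differed in most genes at late swelling, in both directions. A gene was called when its difference, cultivated minus wild in log2(TPM + 1), had a limma adjusted p under 0.05. Of the 23618 genes, 13240 were higher and 8588 lower in cultivated late corms, and 1790 were not called. Calls made up 92.4%, close to the background of 88.4% among all 27050 genes in the fit (50.9% higher and 37.6% lower). Differences of at least 2-fold were found in 61.2%, with 8571 genes higher and 5874 lower, against a background of 54.2% (31.9% higher and 22.3% lower). Origin cannot be told apart here from the plant line, the growing site, the day of sampling or the fit of reads to the reference, nor can fewer cells of a type be told apart from less RNA per cell. The middle of the distribution and its tails pointed in different directions. The median difference was 0.47, yet the 5th percentile lay at -3.51 and the 95th at 2.71. Both directions occurred at all levels of expression. Of the 8101 genes with a mean under 5 TPM over the 6 libraries, 32.8% were at least 2-fold higher and 29.1% at least 2-fold lower, and of the 239 genes at 500 TPM or more, 41.0% were higher and 32.6% lower. The excess of higher genes was widest at 5 to 50 TPM, with 39.6% higher and 20.6% lower of 12399 genes. A called difference of at least 5 (log2) was found in 73 genes higher and 442 genes lower in cultivated late corms.

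The prevailing direction depended on the scale. After median-of-ratios scaling, which sets the typical gene equal across libraries, the median difference was -0.14, a shift of 0.61 from the values as deposited. The calls then became 9946 higher and 11483 lower, with 5173 and 7859 of at least 2-fold. All 8588 genes called lower as deposited were called lower after scaling too, while 9946 of the 13240 higher genes remained higher and 1392 were called in the opposite direction. Of the 2-fold genes, 5173 were at least 2-fold higher and 5874 at least 2-fold lower under both scales. Scaling divided the cultivated late libraries by 1.28 to 1.291 and the wild late libraries by 0.7806 to 0.7882, which moves differences downward. Lower calls could therefore hardly be lost, and these overlaps are no support for the lower genes. The shift is smaller for low genes on this scale: scaling lowered the difference by 0.71 in the 12 named genes with both means at 100 TPM or more, and by 0.29 to 0.49 in the 25 named genes under 1 TPM in every library of 1 origin.

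Replicates lay close together. Spearman correlations across the 23618 genes were 0.989 to 0.994 within an origin and 0.512 to 0.517 between origins. The median SD over the 3 libraries was 0.0721 (log2) in cultivated and 0.087 in wild late corms. Genes that entered by the rule through 1 origin alone had to differ, and they are not evidence of a difference: 2211 genes were under 1 TPM in every wild late library and 3032 in every cultivated late library. Genes just inside the rule, at 1 TPM or more in exactly 3 libraries, numbered 5330 with a median of 1.98 TPM over the 6 libraries. Those just outside, with exactly 2 such libraries, numbered 606 with a median of 0.696 TPM.

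**Figure D1:**
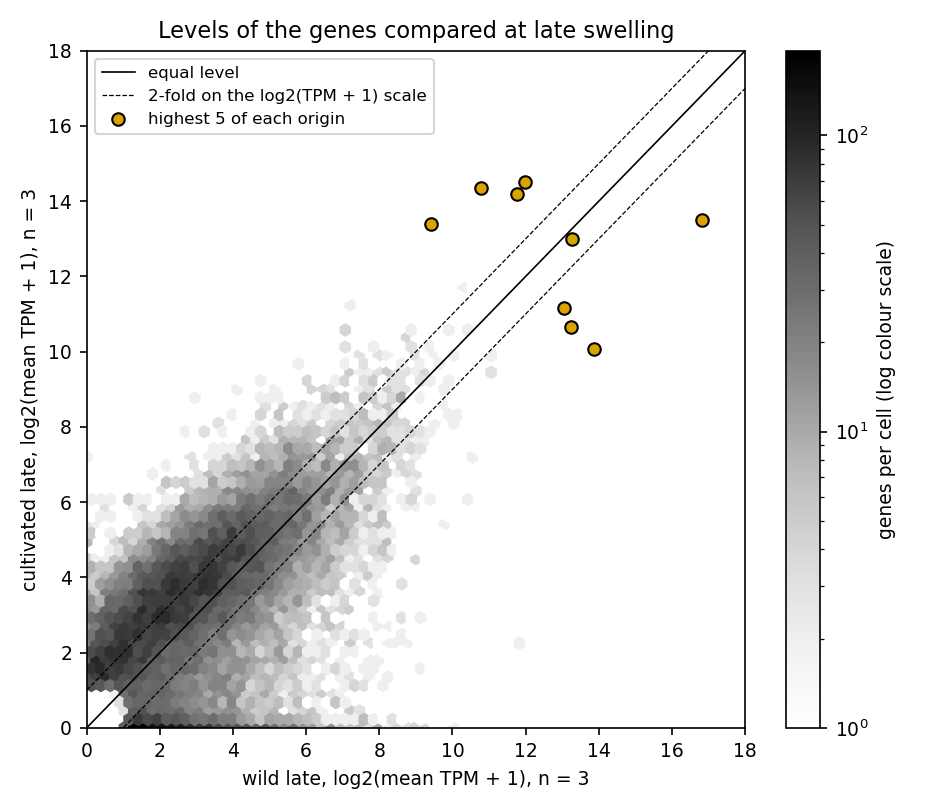
Mean level of each of the 23618 genes in cultivated late corms (vertical axis) and wild late corms (horizontal axis), both as log2(mean TPM + 1) with 3 libraries each, shaded by the number of genes per cell. The dense band lies above the line of equality (median difference of 0.47), while the tail along the lower edge holds genes near 0 in cultivated corms, and of the 9 outlined dominant genes EdulChr70G00237910 alone lies within 2-fold of equality.

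The genes with the largest excess in cultivated late corms lay between 0 and 26.2 TPM in the single wild late libraries. Of the 8 genes with the largest excess 3, and of the 8 with the largest deficit 5, were under 1 TPM in every library of the lower origin, so they entered through the higher origin alone, and their differences are given as a description with no p-value. Both groups of 8 were picked by the size of the late difference, so p-values printed for the others are no further support. EdulChr19G00080780 stood at 2092, 2143 and 2092 TPM in the cultivated late libraries, against 0.78, 0.49 and 1.11 TPM in the wild late libraries. The groups were far apart, by 10.21 ± 0.085 on the log2 scale (SE). With the wild libraries at or under about 1 TPM, this too is a description. EdulChr104G00320870 had 1047, 1055 and 1048 TPM in cultivated late corms, against 0.04 TPM in each of the 3 wild libraries, a difference (log2) of 9.98. EdulChr88G00285760 reached 3851, 3989 and 3903 TPM in cultivated late corms, against 4.41, 2.61 and 3.99 TPM in wild late corms. Its log2 difference was 9.73 ± 0.17 (SE, limma adjusted p = 7.59e-22). These sizes depend on the pseudocount, and with 0.1 in its place they were 11.27, 12.87 and 10.05. All 3 genes were in excess in cultivated corms at the other stages as well, by 1.86 to 10.25 (log2).

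A gene of far higher abundance showed the same pattern. EdulChr41G00156970 held 8594, 9322 and 9543 TPM in cultivated late corms, against 24.3, 24.1 and 26.2 TPM in wild late corms, a difference (log2) of 8.47 ± 0.11 (SE, limma adjusted p = 1.06e-23). At maturity the difference was smaller, with 5223 ± 91.6 TPM in cultivated corms and 1076 ± 9.59 TPM in wild corms (SD, n = 3 each). EdulChr2G00006240 was the least even of these genes. It had 3765, 4163 and 4285 TPM in cultivated late corms, against 16.8, 7.03 and 2.15 TPM in wild late corms, where the libraries spread over nearly an order of magnitude without reaching the cultivated range. Its log2 difference of 9.05 ± 0.63 (SE, limma adjusted p = 1.72e-11) therefore had the widest error of the group.

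The other 3 genes of the 8 were EdulChr28G00112290, EdulChr29G00114780 and EdulChr81G00266040. Their log2 differences were 9.07, 8.57 and 8.20, with mean levels of 686, 1224 and 308 TPM in cultivated late corms. In wild late corms the single libraries of these 3 genes lay between 0 and 2.98 TPM. All 3 were highest at late swelling among the cultivated stages and at maturity among the wild stages. In wild corms at maturity they stood at 21.6 ± 1.38, 129 ± 10.8 and 5.13 ± 0.41 TPM (SD, n = 3).

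The 8 largest deficits in cultivated late corms ran from -11.88 to -9.92 (log2) and were larger than the 8 largest excesses, from 10.21 to 8.20. They fell on genes that were abundant in wild late corms. EdulChr71G00239220 had 0.38, 0.58 and 0.91 TPM in cultivated late corms, against 5751, 5995 and 6445 TPM in wild late corms. The log2 difference was -11.88, or -13.10 with a pseudocount of 0.1. EdulChr18G00073670 had 1.93, 1.56 and 1.48 TPM in cultivated late corms, against 5712, 6359 and 6298 TPM in wild late corms, a difference (log2) of -11.17 ± 0.07 (SE, limma adjusted p = 5.10e-28). Both genes had been expressed in cultivated corms before. EdulChr71G00239220 passed through 171, 12.2, 0.623 and 6.15 TPM from initial swelling to maturity in cultivated corms, and EdulChr18G00073670 through 512, 86.0, 1.66 and 4.87 TPM. In wild corms both were highest at late swelling, at 6064 ± 352 and 6123 ± 357 TPM, and lower at maturity, at 1423 ± 14.8 and 505 ± 18 TPM (SD, n = 3).

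EdulChr67G00227860 followed the same course in cultivated corms, with 1163, 24, 1.39 and 4.81 TPM from initial swelling to maturity. At late swelling it had 1.71, 1.42 and 1.04 TPM in the cultivated libraries, against 2576, 2777 and 2812 TPM in the wild libraries, a difference (log2) of -10.16 ± 0.12 (SE, limma adjusted p = 1.61e-24). In wild corms its mean was already lower at late swelling, after 6055 and 6073 TPM at the initial and middle stages.

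A further kind of deficit fell on genes that dipped at middle swelling and recovered at late swelling in wild corms. EdulChr25G00102080 went through 1343, 177, 2063 and 877 TPM from initial swelling to maturity in wild corms, and novel2469 through 1323, 206, 3360 and 3138 TPM. EdulChr12G00052500 (597, 31.3, 1128 and 745 TPM), EdulChr70G00237700 (355, 7.16, 1029 and 517 TPM) and EdulChr111G00333760 (142, 13.1, 1246 and 1122 TPM) dipped likewise. These 5 genes are grouped here by the dip in the mean of the wild libraries, so the shared dip is a description. In cultivated late corms the single libraries of these 5 genes lay between 0 and 1.53 TPM, against 946 to 3775 TPM in wild late corms. Their log2 differences ran from -10.89 to -9.92. At middle swelling, where wild corms dipped, EdulChr111G00333760 stood at 113 ± 6.19 TPM in cultivated corms and 13.1 ± 1.83 TPM in wild corms (SD, n = 3), so the direction of its difference was reversed there.

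**Figure D2:**
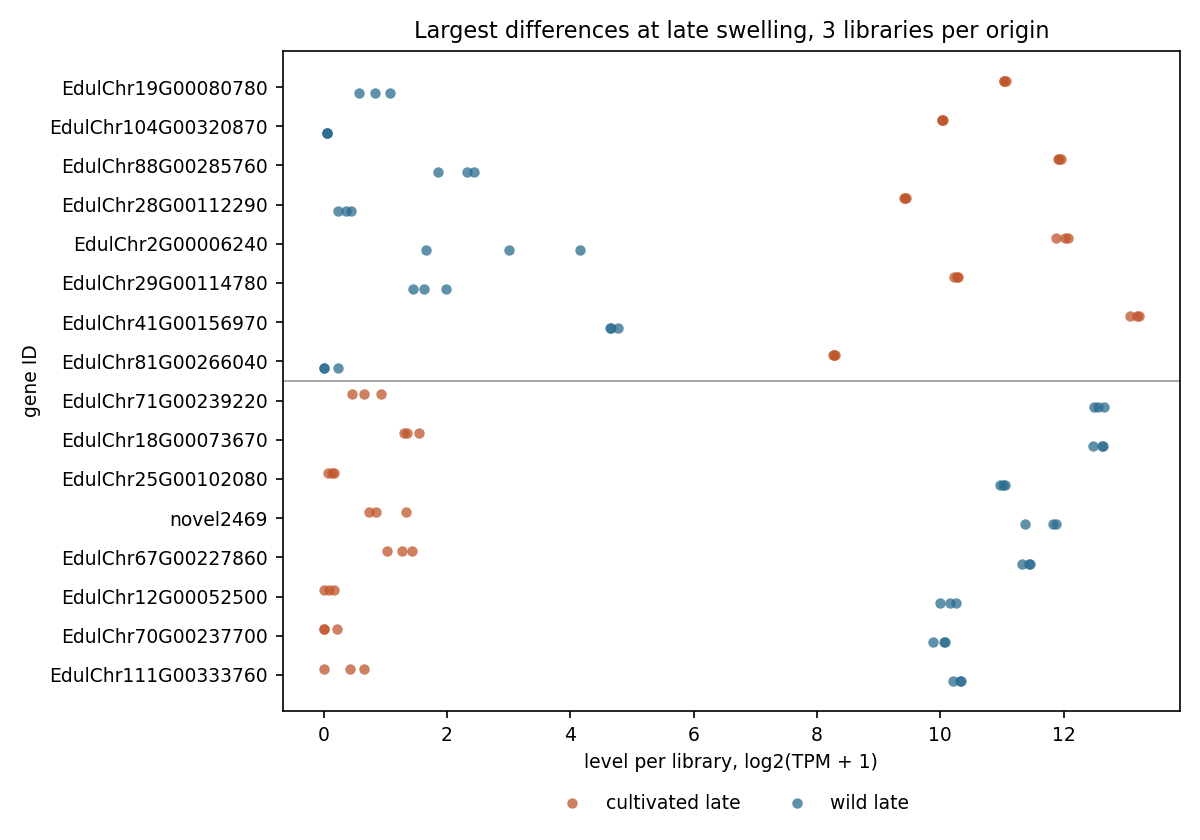
Level of the 8 genes most in excess (upper block) and the 8 most in deficit (lower block) in cultivated late corms, as log2(TPM + 1), with 1 point per library and 3 libraries per origin. No cultivated point overlaps a wild point of the same gene, and EdulChr2G00006240 shows the widest spread among its wild libraries, from 2.15 to 16.8 TPM.

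The most abundant transcripts were also largely different. Of the 10 highest genes of each origin at late swelling, 2 were shared, and of the 100 highest, 30 were shared. EdulChr8G00035780 was the highest gene of cultivated late corms, with 23128, 24091 and 22978 TPM, against 3944, 4217 and 4022 TPM in wild late corms, a difference (log2) of 2.53 ± 0.056 (SE, limma adjusted p = 4.66e-20). EdulChr51G00186400 (20757 ± 1503 TPM in cultivated and 1746 ± 38.1 TPM in wild late corms), EdulChr34G00135090 (18779 ± 98.2 and 3496 ± 150 TPM) and EdulChr101G00315260 (10768 ± 220 and 680 ± 42.1 TPM) were likewise in excess (SD, n = 3 each). In wild corms these genes differed in their course to maturity. EdulChr51G00186400 averaged 12645 ± 507 TPM and EdulChr101G00315260 averaged 8773 ± 432 TPM at maturity (SD, n = 3). EdulChr34G00135090 lay between 3496 and 4254 TPM on average at all 4 wild stages as deposited, which was not repeated after scaling.

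In wild late corms 1 feature stood above all others. The feature novel1867 held 12015, 11402 and 11563 TPM in cultivated late corms, against 128668, 109081 and 110159 TPM in wild late corms. This was 1.17% of all TPM in cultivated and 11.6% in wild late corms, a difference (log2) of -3.31 ± 0.073 (SE, limma adjusted p = 5.00e-20). The next in wild late corms, novel1789, had 1130, 987 and 1131 TPM in cultivated late corms, against 15784, 14405 and 14726 TPM in wild late corms, a difference (log2) of -3.79 ± 0.092 (SE, limma adjusted p = 2.44e-19). The pair shared a course over the stages. From initial swelling to maturity novel1867 averaged 1361, 36622, 11660 and 131633 TPM in cultivated corms and 25521, 76352, 115969 and 246502 TPM in wild corms, and novel1789 averaged 157, 3920, 1083 and 7653 TPM in cultivated corms and 5287, 11933, 14971 and 25220 TPM in wild corms. In cultivated corms both means were lower at late than at middle swelling, and in wild corms both were higher at each successive stage. All values of a library share 1 total, of which this feature took 11.6% in wild late corms. With the 10 highest genes removed, novel1867 among them, the median difference was 0.39, against 0.47 as deposited and -0.14 after scaling. At least 2-fold higher in cultivated late corms were then 8202 genes, against 8571 as deposited.

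EdulChr50G00183490 (1602 ± 20.1 TPM in cultivated and 9626 ± 487 TPM in wild late corms) and EdulChr101G00314220 (2278 ± 41.2 and 8503 ± 202 TPM) were in deficit in cultivated late corms (SD, n = 3 each). At maturity the difference of EdulChr50G00183490 was 1.06 (log2) as deposited and 0.35 after scaling. That of EdulChr101G00314220 was 0.25 as deposited and -0.45 after scaling, so its direction at maturity depended on the scale. EdulChr70G00237910, at 8124 ± 299 TPM in cultivated and 9860 ± 181 TPM in wild late corms (SD, n = 3 each), was among the 10 highest genes of both origins, with a difference of -0.28 ± 0.064 as deposited (SE, limma adjusted p = 3.91e-04) and of -0.99 after scaling.

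The share of TPM held by the highest genes depended on novel1867. The 10 highest genes of a library held 12.7, 12.8 and 12.5% of TPM in cultivated late corms, against 20.6, 18.7 and 18.7% in wild late corms. The number of highest genes that together made up 50% of TPM was 438, 438 and 447 in cultivated late corms, against 357, 387 and 382 in wild late corms. Neither measure overlapped between origins, and the two-sided exact permutation test gave p = 0.1 for both, its lower limit with 3 libraries per origin. Without novel1867 both directions were reversed. The other 9 of the 10 highest genes held 11.5, 11.7 and 11.4% of TPM in cultivated late corms, against 7.75, 7.83 and 7.67% in wild late corms, and 457, 456 and 466 genes made up 50% of the remaining TPM in cultivated late corms, against 578, 573 and 567 in wild late corms (exact permutation p = 0.1 for each). These values were computed after seeing the data. The number of genes detected depended on the limit. At 0.1 TPM it was 24498 ± 46.9 in cultivated and 27286 ± 90.6 in wild late corms, at 1 TPM it was 20526 ± 28 in cultivated and 21318 ± 91.7 in wild late corms, and at 5 TPM it was 14879 ± 7.0 and 13345 ± 63.6 (SD, n = 3 each; exact permutation p = 0.1 for each).

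A smaller set of genes was nearly equal in both origins at late swelling on the deposited scale. In 2742 genes (11.6%) the whole 95% interval of the difference lay within 0.5 (log2), at a median level of 12.7 TPM, and 1329 of these nonetheless passed the test. After scaling, 310 of the 2742 were still nearly equal by this measure. The most abundant were EdulChr70G00237910, EdulChr110G00332670, EdulChr24G00096370 and EdulChr38G00145620. EdulChr38G00145620 had 1645, 1667 and 1701 TPM in cultivated late corms, against 1715, 1735 and 1653 TPM in wild late corms, and its libraries overlapped. Its difference of -0.03 had an interval from -0.13 to 0.08 as deposited and was -0.74 after scaling, where it passed the test. Differences at other stages were found in part of these genes. EdulChr110G00332670 stood at 2059 ± 46.3 TPM in cultivated and 2306 ± 121 TPM in wild late corms, but at 3096 ± 264 and 736 ± 15.1 TPM at maturity (SD, n = 3 each). Of the 2742 genes, 21.8% were called at least 2-fold different at initial swelling, 46.0% at middle swelling and 26.9% at maturity, each below the background of 41.3, 55.1 and 39.9%, and 56 were nearly equal by the same measure at all 4 stages.

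Over the 23618 genes the prevailing direction changed with the stage. At least 2-fold higher and lower in cultivated corms were 5057 and 4685 genes at initial swelling, 4601 and 8384 at middle swelling, 8571 and 5874 at late swelling, and 7400 and 3167 at maturity. After scaling, lower genes outnumbered higher genes at all 4 stages, with 3594 and 5465, 5684 and 6992, 5173 and 7859, and 5047 and 5873.

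Late differences were then set beside the differences at the other stages, which come from other libraries. Of the 8571 genes at least 2-fold higher at late swelling, 44.8% were called at least 2-fold higher at initial swelling, 42.9% at middle swelling and 62.3% at maturity. The background of such calls among all 27050 genes was 21.1, 17.2 and 27.7% at these stages. Of the 5874 genes at least 2-fold lower at late swelling, 53.9% were called at least 2-fold lower at initial swelling, 76.9% at middle swelling and 38.3% at maturity, against a background of 20.2, 37.9 and 12.2%. All 6 shares were above their background, and the stage with the highest share was in each case the one where such calls were most common. After scaling the shares were 43.0, 62.5 and 58.6% for the 5173 higher genes, against a background of 15, 21.2 and 19.0%, and 53.7, 66.1 and 51.3% for the 7859 lower genes, against a background of 23.0, 31.6 and 22.8%. Of the 8571 and 5874 genes, 2110 were at least 2-fold higher and 1315 at least 2-fold lower at all 4 stages. At none of the other 3 stages did 2017 of the higher and 690 of the lower genes reach a 2-fold call in the same direction. The counts at all 4 stages and at late swelling only are as deposited. They have no background share beside them and are a description.

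**Figure D3:**
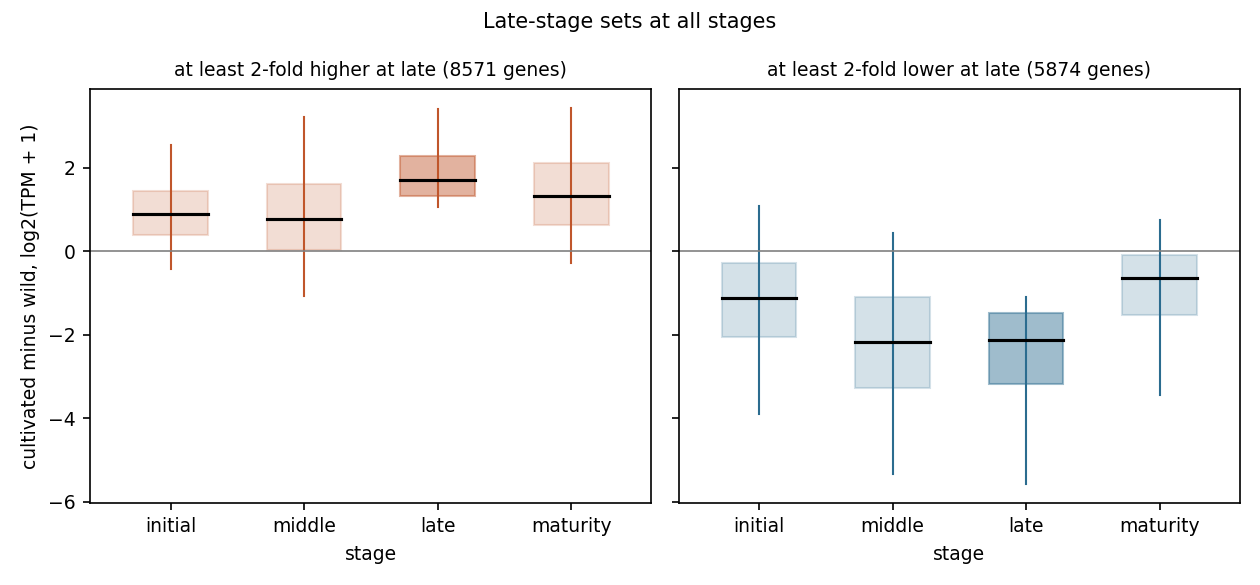
Cultivated minus wild difference in log2(TPM + 1) at each stage for the 8571 genes at least 2-fold higher (left) and the 5874 at least 2-fold lower (right) in cultivated late corms, with the median as a bar, the quartiles as a box and the 5th to 95th percentiles as a line. The median of the higher set was 0.90, 0.78, 1.72 and 1.32 from initial swelling to maturity, and that of the lower set -1.12, -2.16, -2.12 and -0.64, where the late values (darker boxes) are fixed by the choice of genes.

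The late difference itself was tested against that at each other stage. In 9352 genes it was at least 2-fold and departed from the difference at initial swelling, at middle swelling and at maturity, each with a limma adjusted p under 0.05, against a background of 34.9% of all genes in the fit. By the looser measure of a late difference other than the mean of the other 3, the background was 81.8%. It was above all 3 other differences in 3877 of these genes, below all 3 in 2120 and between them in 3355. After scaling the number was 8247, of which 5553 were among the 9352, with 1724 above and 3638 below all 3 other differences, so the prevailing direction depended on the scale here too.

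In 3 of the 6 genes that departed most, the late difference was the reverse of called differences at both initial and middle swelling. Several of the 6 were under 1 TPM in every late library of 1 origin, and their late differences are a description. EdulChr26G00104780 had 13.6, 15 and 13.2 TPM in cultivated late corms, against 0.51, 0.37 and 0.25 TPM in wild late corms, a difference (log2) of 3.44. At the other 3 stages the gene was in deficit in cultivated corms, by -5.12, -5.43 and -3.85 (log2). Wild corms held 76.6, 114, 0.377 and 25.8 TPM from initial swelling to maturity, so the gene was near 0 at late swelling between higher levels before and after. EdulChr30G00118530 was in deficit in cultivated corms at initial and middle swelling only, with 0.743, 1.93, 32.9 and 3.88 TPM in cultivated corms and 29.6, 30.8, 0.277 and 2.46 TPM in wild corms from initial swelling to maturity. Its difference was 4.73 at late swelling and 0.50 at maturity as deposited, and -0.03 at maturity after scaling.

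EdulChr19G00078980 showed the opposite exchange. It had 1.24, 0.79 and 0.83 TPM in cultivated late corms, against 102, 116 and 114 TPM in wild late corms, a difference (log2) of -5.84 ± 0.13 (SE). With the cultivated libraries near 1 TPM, this late difference is a description too. At initial and middle swelling it was in excess in cultivated corms, by 4.01 and 3.5 (log2). EdulChr57G00201130 had the largest departure but an uneven signal. Its cultivated late libraries were listed at 0, 0 and 0.30 TPM, against 6.76, 445 and 509 TPM in the wild late libraries, and at initial swelling it averaged 4527 ± 2374 TPM in cultivated corms (SD, n = 3). The wild late libraries thus differed widely among themselves, and the late difference of -6.79 had an SE of 1.4. Its difference at middle swelling, 1.73, did not pass the test (limma adjusted p = 0.23).

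**Figure D4:**
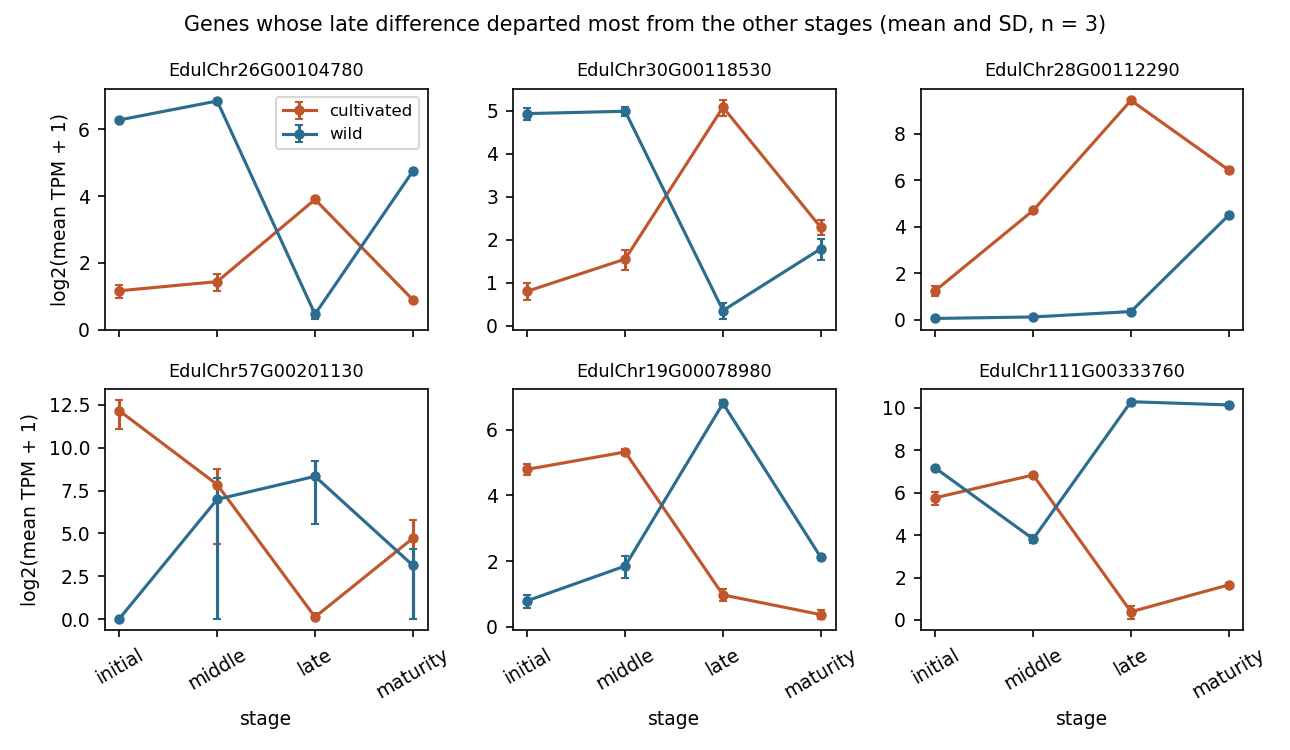
Mean level of the 6 genes whose late difference departed most from the mean of the other stages, as log2(mean TPM + 1) with SD over 3 libraries (lower ends stop at 0), in cultivated and wild corms from initial swelling to maturity. In all but EdulChr28G00112290 the lines cross so that the origin with the higher mean changes between middle and late swelling. EdulChr57G00201130 has the widest error bars, and its difference at middle swelling did not pass the test.

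The stage with the highest level also differed between the sets. Genes at least 2-fold lower in cultivated late corms had their highest cultivated mean at initial swelling in 79.3% of cases, against 50.9% of all 23618 genes, and their highest wild mean at late swelling in 35.0%, against 18.5%. Genes at least 2-fold higher had their highest cultivated mean at late swelling in 54.2%, against 30.6% of all genes, and their highest wild mean at middle swelling in 53.2%, against 41.8%. The late levels that place a gene in a set also bear on its highest stage, so these shares are a description. They were taken as deposited and were not repeated after scaling, which also shifts levels between stages.

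The late level of 1 origin was next compared with the other stages of the other origin. Of the 8571 genes higher in cultivated late corms, 999 (11.7%) reached the cultivated late level in wild corms at another stage, 423 of them with the highest such value at initial swelling, 479 at middle swelling and 97 at maturity. In 5019 genes (58.6%) the mean of wild corms at each other stage was more than 2-fold below the cultivated late level. Of the 5874 genes lower in cultivated late corms, 1432 (24.4%) reached the wild late level in cultivated corms at another stage, and for 1352 of these the stage was initial swelling. After scaling the 2 shares were 12.1 and 14.8%. Initial swelling still led for the lower genes (1009 of 1161), but maturity led for the higher genes (375 of 624).

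Genes near 0 were more numerous in cultivated than in wild late corms. At late swelling 251 genes had at least 1 TPM in each cultivated library but under 0.1 TPM in each wild one, and the reverse held for 1466 genes. The median level on the expressed side was 3.06 TPM in cultivated and 4.43 TPM in wild late corms. In the first set 45 genes averaged at least 10 TPM, and in the second 420. With limits of 2 and 0.5 TPM the numbers were 653 and 1767.

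The 2 sets differed in the level of the origin near 0 at its other stages. Of the 1466 genes near 0 in cultivated late corms, 697 averaged at least 1 TPM in cultivated corms at initial swelling, 32 at middle swelling and 14 at maturity. In wild corms 1250, 1276 and 394 of the 1466 averaged at least 1 TPM at these stages, so most of them were below this level at maturity there as well. Of the 251 genes near 0 in wild late corms, 11, 12 and 6 averaged at least 1 TPM in wild corms at initial swelling, middle swelling and maturity. In cultivated corms 155, 145 and 157 of the 251 did so.

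The most abundant genes of the larger set followed this course. EdulChr60G00210780 was listed at 0 in all 3 cultivated late libraries, against 595, 640 and 616 TPM in the wild late libraries. It averaged 134 ± 4.75 TPM in cultivated corms at initial swelling, and in wild corms 289, 511, 617 and 0.84 TPM from initial swelling to maturity. The features novel676 (listed at 0 in all 3 cultivated late libraries, against 613, 685 and 675 TPM in wild late corms) and novel109 (0, 0 and 0.09 TPM against 705, 625 and 600 TPM) also had high levels in cultivated corms at initial swelling, with 87.1 ± 6.51 and 122 ± 3.51 TPM (SD, n = 3), and averaged 0.547 and 0.0867 TPM in mature wild corms.

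In the smaller set, EdulChr3G00014860 had 273, 267 and 251 TPM in cultivated late corms and was listed at 0 in all 3 wild late libraries. EdulChr29G00116390 had 143, 155 and 152 TPM in cultivated late corms and was listed at 0 in all 12 wild libraries of the series. Whether a gene listed at 0 is silent, or is not counted because its sequence differs from the reference used for mapping, was not tested. IDs in the style of novel1867 made up 37.5% of the 251 genes and 11.3% of the 1466, against 7.63% of the 23618 genes. Among all genes with such an ID, 45.8% were at least 2-fold higher and 24.3% at least 2-fold lower in cultivated late corms. Among genes with an EdulChr ID the shares were 35.5 and 24.9%.

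Genes with chromosome label 47 stood apart from those of all other labels. The 21816 genes with an EdulChr ID carried 111 labels, with 88 to 346 genes each. Among the 173 genes of label 47, 19 were at least 2-fold higher and 71 at least 2-fold lower in cultivated late corms, which is 11% and 41.0%. In each of the other 110 labels at least 27.0% were 2-fold higher and at most 34.1% were 2-fold lower. The median difference of label 47 was 1.07 (log2) below that of all 23618 genes (relative median of -1.07), whereas the relative medians of the other labels lay between -0.41 and 0.33. The label was chosen because it was the lowest at late swelling.

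The other stages, whose libraries took no part in that choice, showed the same. The relative median of label 47 was -0.91 at initial swelling, -0.80 at middle swelling and -1.06 at maturity, the lowest of the 111 labels at each of them. The other labels lay between -0.41 and 0.32, between -0.40 and 0.39, and between -0.35 and 0.45. At late swelling the typical level of the 173 genes, relative to all genes and to the mean of the 6 libraries, was -0.55, -0.47 and -0.55 (log2) in the cultivated libraries, against 0.53, 0.51 and 0.55 in the wild libraries. The origins did not overlap at any stage. The exact permutation p was 0.1 at each stage, the smallest possible with 3 against 3 libraries.

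The shift was present along most of the label. In 7 successive windows of up to 25 genes in ID order, the relative median at late swelling was -1.67, -0.25, -0.83, -1.07, -1.43, -1.40 and -1.31, and the value of the second window, -0.25, lay within the range of the other labels. In that window it was -0.58, -0.25 and -0.67 at initial swelling, middle swelling and maturity, within that range at middle swelling only. A total of 133 of the 173 genes lay below the median difference of all genes. Of the 173 genes, 14 were near 0 in cultivated and none near 0 in wild late corms, against 1466 and 251 of all 23618 genes. As shares of their totals these counts lay close together, so they are not read as a trait of the label. At least 2-fold differences at all 4 stages were found in 30 genes of the label in deficit and 1 in excess. Among all 23618 genes these numbers were 1315 and 2110. All genes with label 47 together held 0.284, 0.287 and 0.287% of TPM in cultivated late corms, against 0.605, 0.624 and 0.627% in wild late corms. A different number of copies in the plants sampled and a different fit of their reads to the reference cannot be told apart here.

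**Figure D5:**
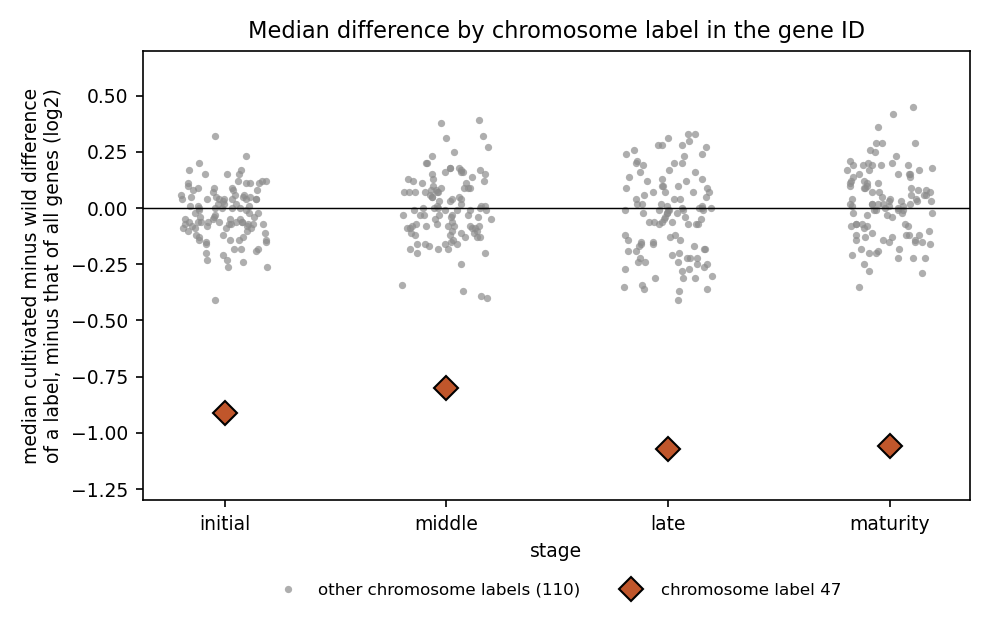
Median cultivated minus wild difference of the genes of each chromosome label, minus the median of all 23618 genes (log2), at each stage, with 1 grey point per label for 110 labels and a diamond for label 47. Label 47 lies between -1.07 and -0.80 at the 4 stages, below all other labels.

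Neighbouring IDs often moved together. Among pairs of genes 1 ID step (10 in the serial number) apart in which both differed at least 2-fold, 58.1% of 5592 had the same direction. Of 5011 such pairs 20 ID steps apart, 51.0% did. Unbroken runs of at least 5 successive IDs with differences of at least 4-fold in 1 direction numbered 1 in excess and 10 in deficit in cultivated late corms. Such neighbours can be near-identical copies among which reads are divided, and 32 of the 23618 genes shared their whole profile over 24 libraries with another gene.

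The longest run in deficit held 11 IDs with 9 distinct profiles, from EdulChr41G00155600 to EdulChr41G00155700. The length of the run depended on single libraries, since its longest unbroken part was 5 IDs without cultivated late replicate 1 or without wild late replicate 1, and 6 IDs without cultivated late replicate 2. The log2 differences of the 11 IDs ran from -7.38 to -2.06, and their summed level was 141 TPM in cultivated and 1982 TPM in wild late corms. Over the stages the sum as deposited was 458, 963, 141 and 346 TPM in cultivated corms and 2218, 2015, 1982 and 2250 TPM in wild corms. It counts identical IDs separately. Sums were not computed after scaling, whose factor was 1.193 in wild initial replicate 1 and 0.5401 in wild maturity replicate 1. Single IDs changed more over the wild stages, as EdulChr41G00155670 averaged 12.9, 0.58, 198 and 208 TPM. EdulChr41G00155610, the most abundant of the run, had 45.7, 48.5 and 43.0 TPM in cultivated late corms, against 772, 895 and 948 TPM in wild late corms. EdulChr41G00155670 and EdulChr41G00155700 had identical values in all libraries, as had EdulChr41G00155650 and EdulChr41G00155680.

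The run in excess held 7 IDs with 7 distinct profiles, from EdulChr3G00016960 to EdulChr3G00017020, and log2 differences from 2.72 to 3.58. Its summed level was 125 TPM in cultivated and 7.87 TPM in wild late corms, and over the stages 32.4, 85.4, 125 and 96.8 TPM in cultivated corms and 5.79, 8.62, 7.87 and 6.89 TPM in wild corms. The difference of the sums was thus present at all 4 stages as deposited, and 5 of the 7 genes were then at least 2-fold in excess at each. After scaling, EdulChr3G00016970 and EdulChr3G00017010 differed by 0.95 and 0.84 (log2) at initial swelling, which is under 2-fold. EdulChr3G00017000 was not in excess there, at -0.11 as deposited and -0.10 after scaling. Among the 16 genes with the largest differences, EdulChr12G00052500 and EdulChr111G00333760 lay in runs in deficit of 5 IDs each. The run around EdulChr12G00052500 summed to 11 TPM in cultivated and 6650 TPM in wild late corms, and that around EdulChr111G00333760 to 9.46 TPM in cultivated and 5386 TPM in wild late corms.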

How the data were processed

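RNA of corm tissue was read on a DNBSEQ-T7 instrument, per the labels' series design. The authors deposited 1 table of TPM values with 2 decimals. The submitters' processing notes list HISAT2 2.0.4, StringTie 2.1.6 and DESeq2, without saying what each did. Build, annotation and filters: not given in the sources used here. Columns were matched to samples by origin, stage and sample number in the titles, and 0 columns were left over.

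Values were tested as log2(TPM + 1) with limma 3.58.1 (R 4.3.3), using lmFit, contrasts.fit and eBayes with a mean-variance trend. The fit held all 24 libraries as 8 group means without a replicate block, over the 27050 genes at 1 TPM or more in at least 3 libraries, and p-values were Benjamini-Hochberg adjusted over these. The scale understates differences of low genes, and fitted differences of genes near 0 depend on the pseudocount. The fit was tested on simulated data. Summaries were made with Python 3.11.15 and SciPy 1.17.1.

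Genes named for the largest differences passed the test, averaged 10 TPM or more in the higher origin and did not overlap between origins, and 8 were taken per direction. Others were the 5 highest per origin, the 3 per direction that departed most from the other stages (with the same minimum mean), the 4 most abundant nearly equal, the 3 most abundant near 0 in each origin, and the longest run of neighbouring IDs per direction. Other runs, identical profiles, label 47 and values without novel1867 were described after their values were seen. The genes, rules and tests were chosen with earlier results of these data known. No lists for starch, sugar, hormones, storage proteins or cell walls were used, because no table here pairs IDs with names.

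Alternatives were a pseudocount of 0.1, no filter, a mean of at least 5 TPM, median-of-ratios scaling, removal of the 10 highest genes, the 6 late libraries alone, a replicate block, and leaving out each late library.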

Additional observations from a re-analysis of the deposited data

Results flagged for a closer look

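The late difference departed from that at each of the other 3 stages in 9352 of the 23618 genes. The following values are the late difference (cultivated minus wild, log2) minus the mean of the other 3 stages. Listed are named genes in which it was at least 1 in size with a limma adjusted p under 0.05. These genes were named by their late values, which also enter this measure, so the values are a description and the test is no support. Several were under 1 TPM in every late library of 1 origin. Against a background of 81.8% of genes past that test, such values were common, and for genes at or near 0 their size depends on the pseudocount.

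Among the genes most in excess in cultivated late corms the value was 6.51 for EdulChr28G00112290, 5.57 for EdulChr104G00320870, 4.83 for EdulChr29G00114780, 4.31 for EdulChr88G00285760, 3.93 for EdulChr81G00266040, 3.23 for EdulChr19G00080780 and 3.04 for EdulChr41G00156970. EdulChr26G00104780 had 8.24 and EdulChr30G00118530 had 7.09, and in both the direction at late swelling was the reverse of that at initial and middle swelling. EdulChr3G00014860 and EdulChr29G00116390, listed at 0 in the wild late libraries, had 4.68 and 1.67.

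Among the genes most in deficit in cultivated late corms the value was -7.63 for EdulChr111G00333760, -6.69 for EdulChr18G00073670, -5.57 for novel2469, -5.23 for EdulChr67G00227860, -4.96 for EdulChr71G00239220, -4.38 for EdulChr70G00237700, -2.88 for EdulChr12G00052500 and -2.42 for EdulChr25G00102080. EdulChr57G00201130 had -11.95, with the uneven libraries described above, and EdulChr19G00078980 had -7.76. Of the genes listed at or near 0 in cultivated late corms, novel676 had -7.59, novel109 had -5.91 and EdulChr60G00210780 had -5.61.

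Among the most abundant and the nearly equal genes, EdulChr50G00183490 had -2.33, EdulChr110G00332670 had -1.40 and novel1867 had -1.25. In the run on label 3, the value was 1.33 for EdulChr3G00016960, 1.05 for EdulChr3G00016970, 1.81 for EdulChr3G00017000 and 1.08 for EdulChr3G00017010. In the run on label 41 it was -1.10 for EdulChr41G00155610, -2.34 for EdulChr41G00155620, -3.12 for EdulChr41G00155630, -1.03 for EdulChr41G00155640 and -2.03 for EdulChr41G00155690, with -1.49 for EdulChr41G00155650 and its identical copy EdulChr41G00155680, and -4.56 for EdulChr41G00155670 and its identical copy EdulChr41G00155700.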

How the results depend on the processing

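Median-of-ratios scaling moved the genes at least 2-fold higher to 5173 and the share of calls that were higher to 46.4%, against 60.7% as deposited, so that lower calls prevailed. It reversed EdulChr24G00096370, nearly equal at 0.23, to -0.48. A mean of at least 5 TPM, which tests fewer genes, left 5427 genes called lower and 3517 at least 2-fold lower. With limits of 0.5 and 2 TPM, 653 genes were near 0 in wild and present in cultivated late corms. The difference in genes detected, -792 at 1 TPM, was 1534 at 5 TPM. Leaving out novel1867, chosen after seeing the data, turned the difference in the share of the 10 highest genes to 3.78 percentage points, against -6.65. EdulChr101G00314220 at maturity was reversed to -0.45 by scaling. Leaving out each late library in turn gave 13101 to 13129 genes called higher, 8491 to 8518 lower, 8555 to 8601 and 5868 to 5899 at least 2-fold higher and lower, 9053 to 9221 departing from the other stages, 2534 to 2584 nearly equal, and 262 to 312 near 0 in wild and 1516 to 1595 near 0 in cultivated late corms. Of 704 values of 55 named genes under these alternatives, 699 kept direction and call. Most of the 55 were named for large differences in these same libraries, so this number says little about other genes. EdulChr110G00332670 lost its call without wild late replicate 1 (-0.12) and EdulChr24G00096370 with the 10 highest genes removed (0.13), while EdulChr38G00145620 gained one under that removal (-0.13) and under scaling (-0.74). Same-numbered libraries did not deviate together (correlations across genes of -3.42e-05, -0.021 and 0.0156), and the fit with a replicate block called 13235 genes higher and 8589 lower. The relative median of label 47 lay between -1.26 and -1.03 under alternatives chosen after seeing the data, and counting identical profiles once gave 8564 and 5867 genes at least 2-fold higher and lower. Depth is unknown, so values under 1 TPM carry an unknown counting error.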

Other observations

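Besides the runs already described, 7 runs of 5 successive IDs in deficit were found, and their summed levels over the stages, as deposited, differed in form. The run from EdulChr78G00260900 to EdulChr78G00260940 summed to 0.403 TPM in cultivated and 776 TPM in wild late corms. As deposited, all 5 genes were at least 2-fold lower in cultivated corms at all 4 stages. The run from EdulChr40G00153010 to EdulChr40G00153050 summed to 1010, 84.5, 19.4 and 6.38 TPM in cultivated corms and 629, 500, 727 and 5.71 TPM in wild corms from initial swelling to maturity. It was thus highest in cultivated corms at initial swelling and low in both origins at maturity. The run from EdulChr18G00073500 to EdulChr18G00073540 summed to 452, 206, 145 and 533 TPM in cultivated corms and 1769, 2987, 3822 and 1849 TPM in wild corms, with opposite courses over the stages. These runs were chosen after their values were seen, and the similarity of their sequences was not examined.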
